A study of Mus musculus with 6 samples.

Results

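The genes of the Nogo and proteoglycan inhibitory receptors were followed in 6 RNA libraries of injured mouse spinal cord motor neurons. All 9 genes chosen by symbol (*Rtn4*, *Rtn4r*, *Rtn4rl1*, *Rtn4rl2*, *Lingo1*, *Tnfrsf19*, *Ptprs*, *Ptprf* and *Ptprd*) were among the 53858 genes of the count table. Each library is a pool of 10 to 15 fluorescent motor neurons that were picked from wild-type mice 6 days after sciatic nerve crush. Both groups received DiO, a membrane dye that was injected near the injury on day 0 and filled the damaged neurons. In 3 pools, named here DiO-only pools, the cells carried DiO without DiI. In the other 3, the double-labelled pools, the cells also carried DiI, a dye that was put into the distal nerve on day 2 and marked neurons whose axons had already grown there. The comparison asks which transcripts differ between neurons that reached the distal nerve early and injured neurons without the distal dye. Whether each pool is from another mouse is not stated, so p-values reflect the scatter among these 6 pools, part of which may be technical. The sources used here do not give strain, age or sex.

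Nogo, the product of *Rtn4*, is a reticulon protein that sits in the endoplasmic reticulum of many cells and on the surface of oligodendrocytes, where it limits the regrowth of cut axons in the central nervous system. It binds the Nogo receptor (*Rtn4r*), an anchored protein without a cytoplasmic part that signals through *Lingo1* together with the low-affinity neurotrophin receptor (*Ngfr*) or its relative *Tnfrsf19*, also called TROY. Chondroitin sulfate proteoglycans, the inhibitory matrix of scars and perineuronal nets, are sensed by the receptor phosphatases *Ptprs* and *Ptprf* (LAR), whose close relative *Ptprd* organises synapses.

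The libraries carried motor neuron transcripts. The summed CPM (counts relative to library size) of 10 motor neuron markers ran from 3752 to 5622 across DiO-only pools and from 3682 to 5931 across the double-labelled ones. The largest parts were *Prph* (means of 2296 and 1671 CPM) and *Ret* (1112 and 943 CPM). *Chat* (78.4 and 111 CPM) and *Isl1* (31.9 and 25.3 CPM) were small parts. Of the 9 tested motor neuron markers 5 were higher in double-labelled pools and 4 lower (median log2 fold change 0.14), 1 with an unadjusted p under 0.05. *Chodl* stood at means of 192 and 647 CPM. Transcripts of other cells were present as well. The 12 oligodendrocyte markers summed to 230 to 634 CPM in the DiO-only group and to 1331 to 5620 CPM in the double-labelled group, with at most 2 markers at 0 counts in a library. All 11 tested oligodendrocyte markers were higher in double-labelled pools, 8 with an unadjusted p under 0.05 (median log2 fold change 2.01). The 12 astrocyte markers summed to 1014 to 1098 and to 1009 to 2274 CPM, with at most 3 at 0. Most of that sum came from *Aldoc* (means of 525 and 908 CPM) and *S100b* (469 and 429 CPM). Of the 11 tested astrocyte markers 9 were higher in double-labelled pools and 2 lower (median log2 fold change 2.45), 6 with an unadjusted p under 0.05 and 6 without overlap between the groups. Of 6 markers of oligodendrocyte precursors only 2 were tested, *Olig1* and *Sox10*. Both were higher as well (median 3.19, both with an unadjusted p under 0.05). The untested precursor markers were near 0 or uneven. *Pdgfra* had 1, 3 and 8 counts in DiO-only pools and 0, 2 and 0 in double-labelled pools, and *Olig2* had 6, 6 and 0 against 44, 9 and 0. *Cspg4* had 1 count, in double-labelled pool 1, and *Gpr17* had 0 counts. No marker passed over all genes, and the part of these cells in the values below was not tested. In such pools fewer cells of a type and less RNA per cell cannot be told apart. Double-labelled pool 1 was the library least like the rest, with a mean Pearson r of 0.778 to the other 5 against 0.791 to 0.857 for those, across genes, which are not independent replicates.

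**Figure D1:**
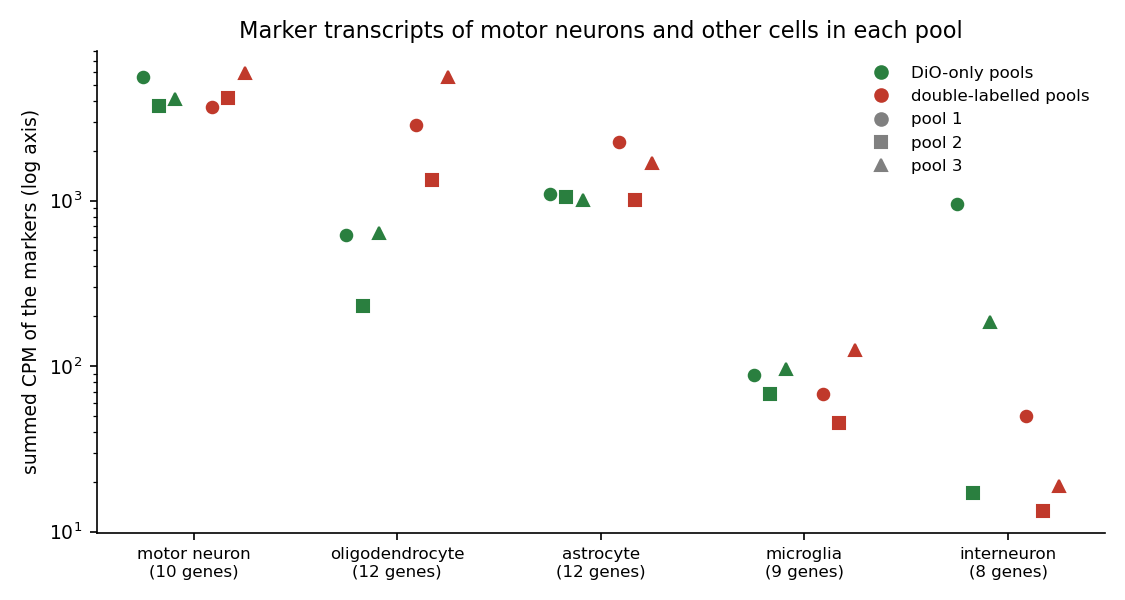
Summed CPM (log axis) of marker genes for motor neurons, oligodendrocytes, astrocytes, microglia and interneurons, with 1 point for each pool, green for DiO-only and red for double-labelled. The motor neuron sums overlap between the groups, at 3752 to 5622 in DiO-only and 3682 to 5931 in double-labelled pools, though single markers differ in direction. The oligodendrocyte sums of 1331 to 5620 in double-labelled pools all lie above the DiO-only sums of 230 to 634. The interneuron sums overlap, at 17.1 to 948 in DiO-only and 13.3 to 50.2 in double-labelled pools.

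The 9 genes differed far more from each other than between the groups of pools. *Rtn4* was among the most abundant transcripts, *Ptprs*, *Lingo1* and *Ptprd* stood at middle levels, *Ptprf* and *Tnfrsf19* were low, and the genes of the Nogo receptor and its relatives were at or near 0. None of the 6 genes with enough counts for the test was called different between the groups, with edgeR adjusted p from 0.956 to 0.999. Their 95% intervals leave room for sizeable differences, such as a 3.21-fold higher level for *Ptprf*. Across all 12954 tested genes 0% passed at an adjusted p under 0.05 (smallest adjusted p 0.308), and 5.81% had an unadjusted p under 0.05, against 0 of the 6 genes here. The groups of pools did not overlap for 12.9% of tested genes and for 0 of these 6. DESeq2, run on unfiltered counts, called 75 genes (0.492% of those with an adjusted p) and limma voom called 0, with none of the 6 among them.

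Gene sequences were compared first, because reads of near-identical genes could be split between them. Of 36 pairs of the 9 genes, 35 share no stretch of 31 bases in their transcripts, read on either strand. *Lingo1* and *Ptprd* share 3 such stretches, which may overlap each other, and their longest identical coding run is 12 bases. The longest identical coding runs were those of the 3 phosphatase genes, with 27 bases for *Ptprs* and *Ptprf*, 26 for *Ptprf* and *Ptprd* and 21 for *Ptprs* and *Ptprd*. Shown here is the run of 27 with 21 bases on each side, with the matching window of *Ptprd*, from GENCODE M21 transcripts on GRCm38, 5′ to 3′ on the coding strand, at coding bases 586 to 654 counted from the start codon. Capitals mark the bases that are the same in all 3 genes.
Ptprs: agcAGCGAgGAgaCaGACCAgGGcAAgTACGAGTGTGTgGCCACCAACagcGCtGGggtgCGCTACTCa
Ptprd: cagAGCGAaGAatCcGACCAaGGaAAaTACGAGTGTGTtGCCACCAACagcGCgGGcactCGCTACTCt
Ptprf: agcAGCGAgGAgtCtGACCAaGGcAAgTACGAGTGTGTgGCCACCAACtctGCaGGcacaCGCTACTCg
In this window 49 of 69 bases are the same in all 3 genes. *Ptprd* matches *Ptprs* at 52 of them (75.4%) and *Ptprf* matches at 57 (82.6%). The 3 genes share no stretch of 31 bases, so reads of at least that length differ between them in these transcripts. The sources used here do not state a read length.

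Levels of different genes were compared as TMM-scaled CPM per kb of exon. *Rtn4* stood at 183 ± 117 CPM per kb (SD over 6 libraries), above 98.2% of tested genes. *Ptprs* followed at 19.7 ± 4.93 (above 83.1% of tested genes), *Lingo1* at 11.2 ± 4.88 (72.9%), *Ptprd* at 6.86 ± 1.43 (60.9%), *Ptprf* at 2.46 ± 0.952 (32.1%) and *Tnfrsf19* at 1.33 ± 0.994 (17.3%). *Rtn4* was above *Ptprs*, *Ptprs* above *Lingo1* and *Ptprd* above *Ptprf* in 6 of 6 libraries. *Lingo1* was above *Ptprd* in 5 of 6 and *Ptprf* above *Tnfrsf19* in 5 of 6, and the ranges of both pairs over the libraries overlapped, as did those of *Ptprs* (15.0 to 27.1) and *Lingo1* (5.32 to 19.8). With the length of the longest coding transcript in place of all exons, *Ptprd* (15.8) came before *Lingo1* (14.6), and the other ranks were as before. The Nogo receptor gene *Rtn4r*, at 0.562 ± 0.689 CPM per kb, was above *Rtn4rl1* in 4 of 6 libraries and below *Tnfrsf19* in 4 of 6.

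**Figure D2:**
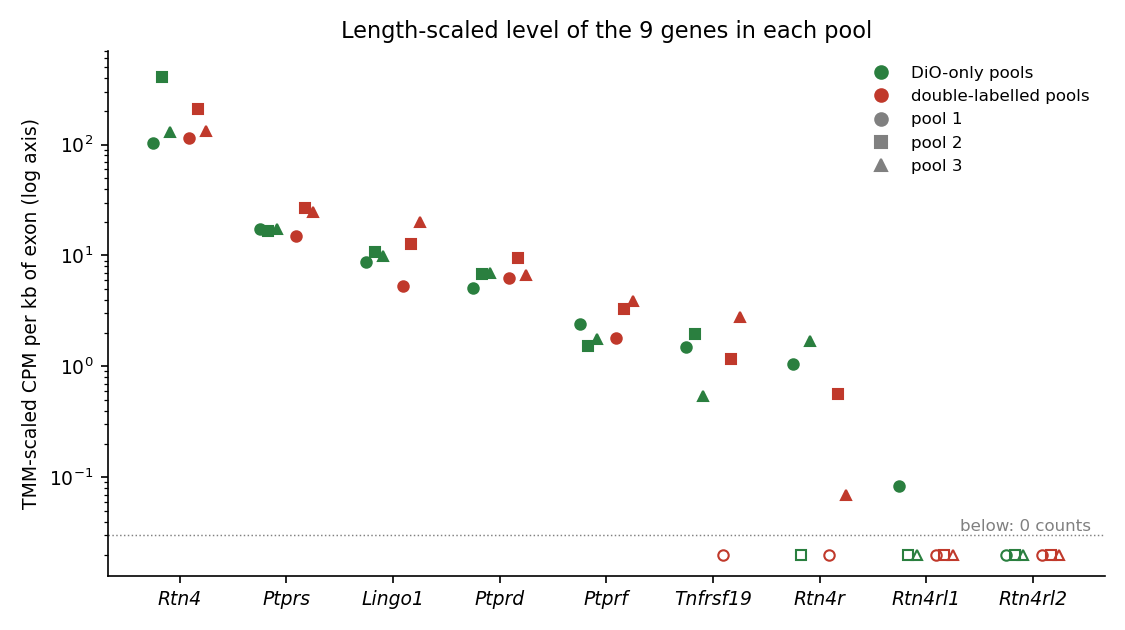
TMM-scaled CPM per kb of exon (log axis) of the 9 genes, with 1 point for each pool, green for DiO-only and red for double-labelled, and open symbols under the dotted line for 0 counts. *Rtn4* lies between 102 and 408 in every pool, while *Rtn4rl2* has 0 counts in all 6.

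*Rtn4* (ENSMUSG00000020458) lies on chromosome 11, 29692947 to 29744331, plus strand. In DiO-only pools 1, 2 and 3 it stood at 715, 2851 and 903 CPM, and in double-labelled pools 1, 2 and 3 at 794, 1475 and 920 CPM. Pool 2 was the highest library of each group, and the other 4 libraries lay between 715 and 920 CPM. The groups overlapped. The means were 1490 ± 1183 and 1063 ± 362 CPM (SD, n = 3). The log2 fold change of double-labelled against DiO-only pools was -0.49 ± 0.50 (SE; 95% interval -1.59 to 0.61; edgeR adjusted p = 0.970). Without DiO-only pool 2 it was 0.40, without any other single library it was between -0.83 and -0.33, and with limma voom, which gives libraries unequal weights, it was 0.10, so the direction rests on that library and on the fit. Pool 2 of each group also had the fewest total counts of its group, 3747145 and 2997714. The part of depth in these values was not tested.

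Of the other reticulon genes, *Rtn1* and *Rtn3* were abundant as well and *Rtn2* was not. Of 6 *Rtn* and *Lingo* relatives 5 were tested, 3 higher and 2 lower in double-labelled pools, with a median log2 fold change of 0.11. *Rtn1*, of a neuronal reticulon, stood at 8733 CPM in DiO-only pool 2 and between 3115 and 4158 in the other DiO-only pools, and at 5349 CPM in double-labelled pool 2 against 2565 and 2771 in pools 1 and 3. *Rtn3* was likewise highest in pool 2 of each group, at 2170 and 2274 CPM, with the other 4 libraries between 1079 and 1279. Per kb, *Rtn1* stood at 893 and *Rtn3* at 306, both above the 183 of *Rtn4*. Their log2 fold changes were -0.58 ± 0.46 and 0.11 ± 0.39 (SE), and neither passed (edgeR adjusted p = 0.959 and 0.987). *Rtn2*, at 21.1 CPM per kb, was near the level of *Ptprs*. It was highest in DiO-only pool 1, at 143 CPM, with the other 5 libraries between 69.1 and 101 CPM (log2 fold change -0.21 ± 0.35, SE; edgeR adjusted p = 0.987).

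Oligodendrocytes also express *Rtn4*, and their markers were higher in double-labelled pools. Their summed level was 624, 230 and 634 CPM in DiO-only pools 1, 2 and 3 and 2883, 1331 and 5620 CPM in double-labelled pools 1, 2 and 3, and *Rtn4* was highest in pool 2 of each group, where these sums were lowest. The part of oligodendrocyte RNA in the *Rtn4* values was not tested. *Rtn4* shares 1284 exon bases (18.4% of its exon length) with *Eml6* on the opposite strand. *Eml6* had 537 counts over all libraries against 33454 for *Rtn4*, and without a stated strand setting reads from the shared bases cannot be told apart. Counts per gene do not separate the Nogo isoforms.

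The Nogo receptor gene itself was nearly unread. *Rtn4r* (ENSMUSG00000043811; chromosome 16, 18127642 to 18152408, plus strand) had 14, 0 and 19 counts in DiO-only pools 1, 2 and 3 and 0, 3 and 1 in double-labelled pools 1, 2 and 3. DiO-only pools 1 and 3 held nearly all of them, but DiO-only pool 2 had none, so the groups overlapped. The 37 counts over all libraries have an exact Poisson 95% interval of 26.1 to 51.0. Per kb, *Rtn4* had 251 times the counts of *Rtn4r*. The gene did not reach the filter on low counts. Without that filter its log2 fold change was -2.20 in edgeR (adjusted p = 0.655) and -2.20 in DESeq2 (adjusted p = 0.931).

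Both relatives of the receptor were lower still. *Rtn4rl1* (ENSMUSG00000045287; chromosome 11, 75193783 to 75267769, plus strand) had 2 counts, both in DiO-only pool 1. *Rtn4rl2* (ENSMUSG00000050896; chromosome 2, 84871924 to 84886710, minus strand), whose product binds myelin-associated glycoprotein, had 0 counts in all 6 libraries. With a floor of 3 counts over the 29991424 of all libraries, its level was at most 0.0664 CPM per kb, and *Rtn4* was at least 2402-fold higher per kb. At this depth no difference between the groups was detectable for these genes. *Pirb*, another receptor that binds Nogo, had 1 count over all libraries, and *S1pr2*, a sphingosine phosphate receptor that binds Nogo as well, stood at 4.39 ± 0.782 and 4.18 ± 2.93 CPM (SD, n = 3; edgeR adjusted p = 0.998).

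The signalling partners of the Nogo receptor were read in more libraries than the receptor. *Lingo1* (ENSMUSG00000049556, chromosome 9, 56618475 to 56796468, minus strand) encodes a leucine-rich repeat protein. It stood at 41.6, 50.4 and 46.7 CPM in DiO-only pools 1, 2 and 3. The corresponding double-labelled levels were 25.1, 59.7 and 93.5 CPM. The DiO-only pools were close to each other, and the double-labelled pools lay on both sides of them. The means were 46.3 ± 4.45 and 59.4 ± 34.2 CPM (SD, n = 3), with a log2 fold change of 0.36 ± 0.45 (SE; 95% interval -0.62 to 1.35; edgeR adjusted p = 0.978). Without double-labelled pool 3 it was -0.14, and without double-labelled pool 1 it was 0.72. Its relative *Lingo4* stood at 9.91 ± 2.12 and 23.7 ± 7.70 CPM without overlap between the groups (log2 fold change 1.26 ± 0.51, SE; unadjusted p = 0.0313, edgeR adjusted p = 0.765).

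*Tnfrsf19* (ENSMUSG00000060548; chromosome 14, 60963875 to 61046490, minus strand) had 49, 28 and 15 counts in DiO-only pools 1, 2 and 3 and 0, 15 and 98 in the double-labelled ones. These are 7.15, 9.35 and 2.58 CPM against 0, 5.49 and 13.1 CPM. The double-labelled pools held both the highest and the lowest library, and 0 counts in pool 1 allow up to 0.602 CPM. The log2 fold change was -0.02 ± 1.26 (SE), and its 95% interval of -2.78 to 2.74 is too wide to show even large differences (edgeR adjusted p = 0.999). It was -1.26 without double-labelled pool 3 and 0.56 without double-labelled pool 1. *Ngfr*, the alternative partner, stood at 11.5, 9.02 and 8.59 CPM and at 0.411, 19.4 and 7.64 CPM, a spread of the same kind (edgeR adjusted p = 0.996). *Lingo1*, *Tnfrsf19* and *Ngfr* were each lowest in double-labelled pool 1.

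The proteoglycan receptor *Ptprs* (ENSMUSG00000013236; chromosome 17, 56412426 to 56476483, minus strand) was the most even of the genes in DiO-only pools, at 261, 251 and 260 CPM. Its coefficient of variation there was 2.26%, no more than the 2.36 to 3.65% that counting alone gives for 1 library. In double-labelled pools 1, 2 and 3 it stood at 224, 405 and 371 CPM. Pools 2 and 3 lay above all DiO-only pools and pool 1 below them, so the groups overlapped. The means were 257 ± 5.80 and 334 ± 96.3 CPM (SD, n = 3), with a log2 fold change of 0.37 ± 0.31 (SE; 95% interval -0.31 to 1.06; edgeR adjusted p = 0.963). Without double-labelled pool 1 it was 0.59 (unadjusted p = 0.0693), and without double-labelled pool 2 it was 0.19 (unadjusted p = 0.604).

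*Ptprf* (ENSMUSG00000033295; chromosome 4, 118208213 to 118291405, minus strand) was likewise lowest in double-labelled pool 1 of its group. DiO-only pools 1, 2 and 3 held 22.0, 14.0 and 16.3 CPM, and double-labelled pools 1, 2 and 3 held 16.6, 30.4 and 35.6 CPM. Pools 2 and 3 of the double-labelled group were again above every DiO-only pool, and pool 1 was within their range. The log2 fold change of 0.65 ± 0.47 (SE; 95% interval -0.38 to 1.68) had the smallest p of the 6 genes and did not pass (unadjusted p = 0.191, edgeR adjusted p = 0.956). Without double-labelled pool 1 it was 0.91 (unadjusted p = 0.0591), and without double-labelled pool 3 it was 0.41 (unadjusted p = 0.449).

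*Ptprd* (ENSMUSG00000028399; chromosome 4, 75941238 to 78211961, minus strand) was read at 115, 155 and 160 CPM in DiO-only pools 1, 2 and 3, and double-labelled pools 1, 2 and 3 held 143, 215 and 152 CPM. Only double-labelled pool 2 was outside the DiO-only range. The means were 143 ± 24.5 and 170.0 ± 39.2 CPM (SD, n = 3), with a log2 fold change of 0.25 ± 0.31 (SE; 95% interval -0.44 to 0.93; edgeR adjusted p = 0.978). Without double-labelled pool 2 it was 0.02, and without DiO-only pool 1 it was 0.10.

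**Figure D3:**
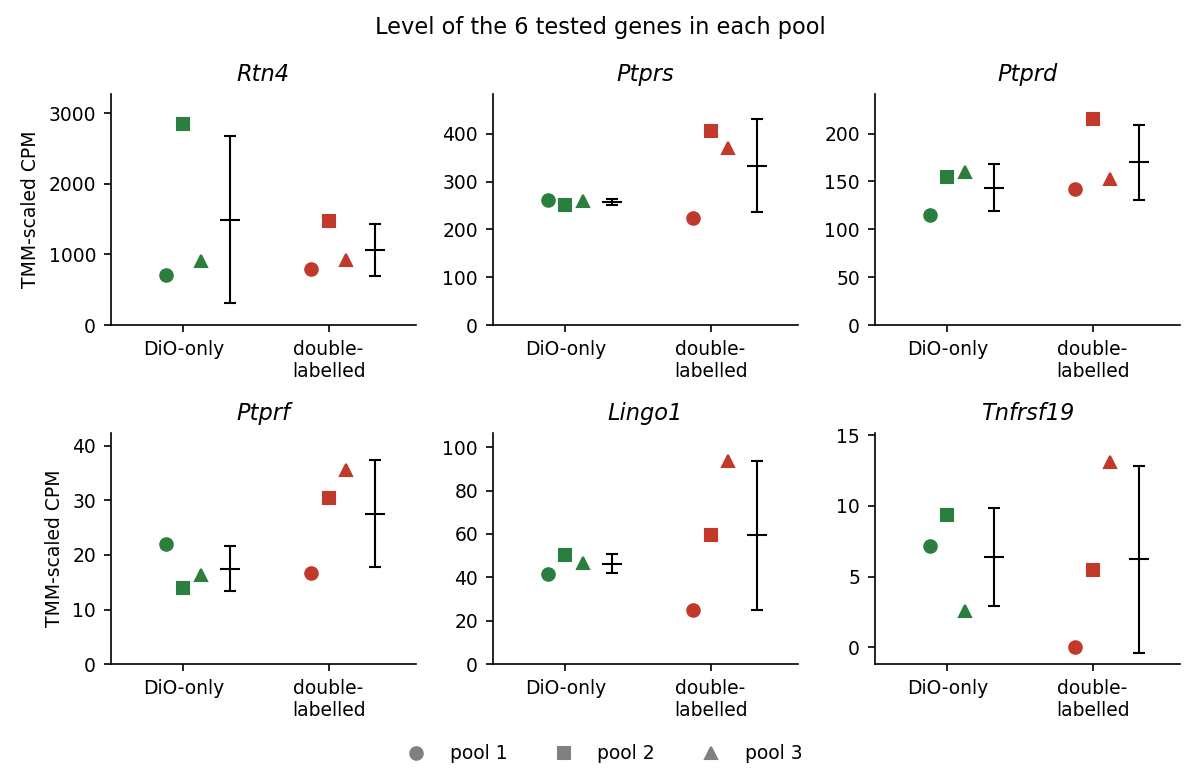
TMM-scaled CPM of the 6 tested genes in each pool (linear axes that differ between panels), with the mean and SD of each group in black beside the points. *Rtn4* is set apart by DiO-only pool 2 at 2851 CPM, and double-labelled pool 1 is the lowest double-labelled pool in all 6 panels.

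*Ptprs* held the largest share of the phosphatase level in every pool, and that share varied less, relative to its size, than those of *Ptprd* and *Ptprf*. *Ptprs* made up 65.0 to 70.1% of the summed CPM per kb of *Ptprs*, *Ptprd* and *Ptprf* in the 6 libraries, *Ptprd* 18.9 to 27.1% and *Ptprf* 6.13 to 11.03%. For DiO-only and double-labelled pools the *Ptprs* share was 67.7 ± 2.00% and 67.7 ± 2.56% (SD, n = 3), that of *Ptprd* 24.7 ± 3.84% and 23.2 ± 4.13%, and that of *Ptprf* 7.54 ± 1.88% and 9.09 ± 1.69%. Each share differed between the groups by less than its spread between pools. With the longest coding transcript as the length, the mean *Ptprf* share over the 6 libraries was 4.67% in place of 8.32%.

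**Figure D4:**
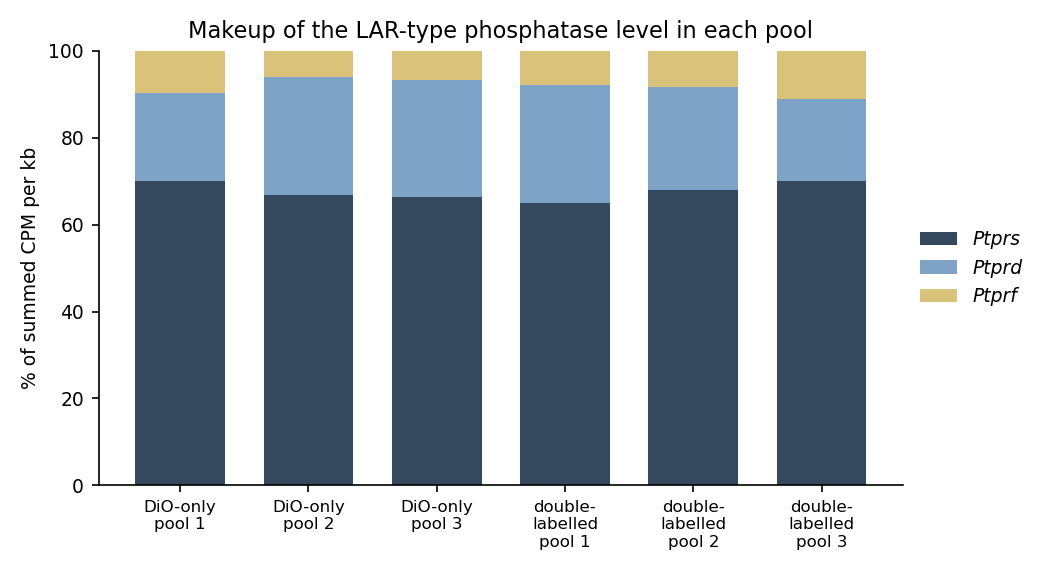
Share of *Ptprs*, *Ptprd* and *Ptprf* in their summed TMM-scaled CPM per kb (percent, stacked bars from 0 to 100) for each pool. *Ptprs* makes up 65.0 to 70.1% in every pool.

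By the sign of the edgeR log2 fold change, 4 of the 6 tested genes were higher in double-labelled pools and 2 lower. Their median log2 fold change was 0.30 against 0.02 over all tested genes. All 6 genes were lower in double-labelled pool 1 than the mean of double-labelled pools 2 and 3. The median difference was -0.88 on the log2 scale, where the median of all tested genes was -0.0003. Without that pool 5 of the 6 fold changes were positive, and without double-labelled pool 3 it was 3. The astrocyte marker sum was highest in double-labelled pool 1, at 2274 CPM, where *Aldoc* alone had 8328 counts, against 4901 in double-labelled pool 3. Single astrocyte markers did not all follow that sum. *Gfap* had 110 and 919 counts in double-labelled pools 1 and 3, *Atp1b2* 254 and 743, and *Agt* 137 and 79. The oligodendrocyte marker sum was highest in double-labelled pool 3, at 5620 CPM. The part of these cells in the values of the 6 genes was not tested.

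**Figure D5:**
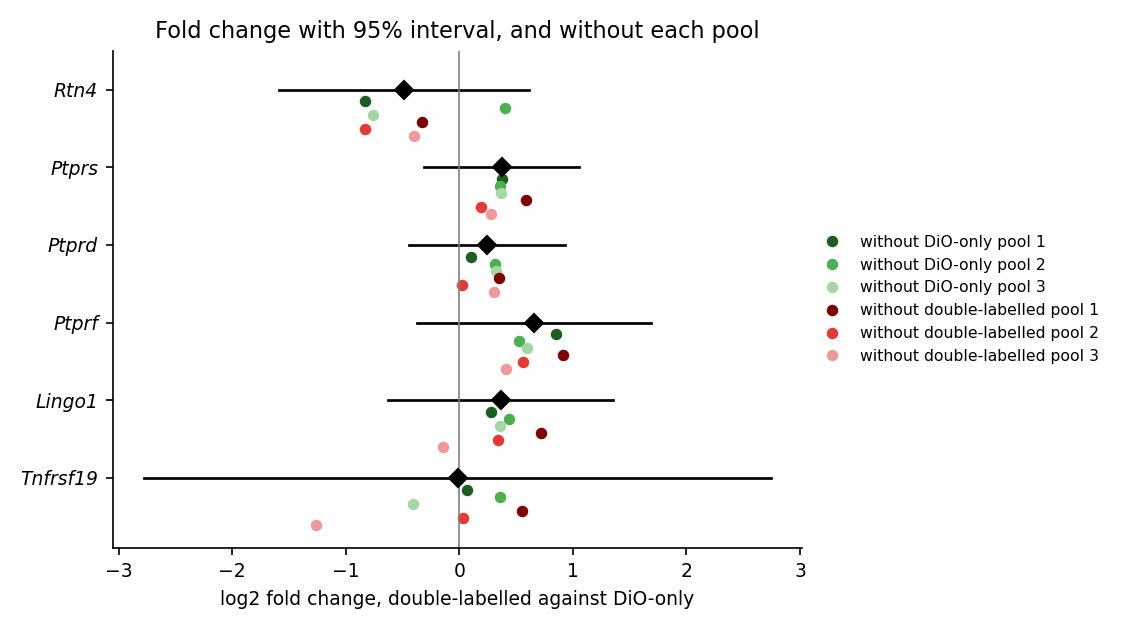
Log2 fold change of double-labelled against DiO-only pools for the 6 tested genes (black diamonds) with 95% intervals (lines), and the same value with each pool left out (coloured points). Every interval includes 0, and the point without DiO-only pool 2 puts *Rtn4* at 0.40 where the full data give -0.49.

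Other genes of the pathway were read from lists beside these values. Of 10 tested genes for further myelin inhibitors, co-receptors and receptors, 7 were higher and 3 lower in double-labelled pools, and 2 had an unadjusted p under 0.05. Their median log2 fold change was 0.24. No gene of this list or of the others described here passed over all genes. *Omg*, a myelin glycoprotein that binds the Nogo receptor, stood at 74.1 ± 20.9 and 113 ± 22.1 CPM without overlap (edgeR adjusted p = 0.899), and *Lrp1*, an endocytic receptor that can bind myelin proteins, at 91.4 ± 15.9 and 146 ± 29.6 CPM without overlap (edgeR adjusted p = 0.869). *Mag*, of myelin-associated glycoprotein, stood at 6.57 ± 5.0 and 8.75 ± 11.8 CPM (SD, n = 3). *Cntnap1*, of axon-glia junctions, and the myelin gene *Mog* were the 2 genes with an unadjusted p under 0.05, at 60.6 ± 14.2 against 108 ± 23.4 CPM and at 1.22 ± 1.09 against 7.38 ± 4.98 CPM. *Mag* and *Mog* are oligodendrocyte markers. *Mag* stood at 2.47 and 1.47 CPM in double-labelled pools 1 and 3, which had the highest oligodendrocyte sums, and at 22.3 CPM in double-labelled pool 2. The part of oligodendrocyte RNA in these values was not tested.

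Among the proteoglycans that act as ligands, 11 of 19 genes were tested, 8 higher and 3 lower, with a median log2 fold change of 0.26. *Bcan*, of brevican, was the gene of smallest p, at 43.3, 18.4 and 74.9 CPM across DiO-only and at 69.5, 141 and 304 CPM across double-labelled pools (log2 fold change 1.91 ± 0.59, SE; unadjusted p = 0.00731, edgeR adjusted p = 0.617). Its groups overlapped. *Ptprz1*, a receptor phosphatase whose shed form is a matrix proteoglycan, stood at 5.32 ± 3.48 and 15.6 ± 4.80 CPM without overlap (edgeR adjusted p = 0.872). Both genes are also expressed by glia. The tested astrocyte markers were mostly higher in the same group (median log2 fold change 2.45). So were *Olig1* and *Sox10*, the only 2 of 6 oligodendrocyte precursor markers that were tested (median 3.19). The part of glial RNA in these values was not tested. *Acan*, the aggrecan gene of perineuronal nets, stood at 93.1 ± 49.2 and 55.6 ± 24.1 CPM, and *Ncan*, of neurocan, at 28.5 ± 6.61 and 32.4 ± 11.8 CPM (SD, n = 3; edgeR adjusted p = 0.929 and 0.987). *Vcan*, of versican, had 31 counts over all libraries and was not tested.

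Partners of the LAR-type phosphatases at synapses and in the cytoplasm, 19 of 21 tested, were higher in 15 cases and lower in 4 (median log2 fold change 0.27), and 1 gene had an unadjusted p under 0.05. That gene was *Slitrk4*, of a synaptic adhesion protein, at 57.9 ± 15.0 and 102 ± 29.6 CPM (SD, n = 3; edgeR adjusted p = 0.830). Over all tested genes 51.3% had positive fold changes.

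Genes with the most similar profile across the 6 libraries were sought among 6527 genes with a mean of at least 20 CPM, as a description without a test. For *Rtn4* these were *Cebpz* (Pearson r = 0.993), *Tnfrsf21* (0.991) and *Syt11* (0.981), all highest in DiO-only pool 2. *Syt11*, for example, stood at 4373 CPM there, at 3041 CPM in double-labelled pool 2 and between 1824 and 2080 CPM in the other 4. For *Lingo1* they were *Chpf* (0.993), *Nptxr* (0.988) and *Mms19* (0.985), and for *Ptprs* *Tecpr1* (0.986), *Fam3c* (0.972) and *Map4k3* (0.966). With 6 libraries and 6527 genes such values are high for many pairs, and the profiles share each library's depth and makeup.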

How the data were processed

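RNA from 6 pools of picked mouse motor neurons was amplified over 20 PCR cycles with a SMART-Seq HT kit, per the labels' protocols. The deposited values are whole read counts per Ensembl gene, not normalised by the authors. FastQC, HISAT2, HTSeq and build mm10 are named in the submitters' processing notes. The sources used here do not give their versions, the gene annotation or the strand setting. The series table and the 6 single-library files held the same counts. Of 53858 gene identifiers, 53772 were found in GENCODE M21, whose assembly GRCm38 is the same as mm10.

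Counts were analysed in R 4.3.3 with edgeR 4.0.16. The filterByExpr rule kept 12954 genes, libraries were scaled with TMM factors, and edgeR's robust quasi-likelihood test was run on the 2 groups, two-sided, with Benjamini-Hochberg adjustment over all tested genes and a threshold of 0.05. Standard errors were derived from fold change and F value, and 95% intervals from the t distribution with the moderated degrees of freedom. CPM values are TMM-scaled, except summed marker CPM and the floors of 3 counts, which use total counts. Levels between genes were compared only after division by the summed exon length in kb. Total counts ran from 2997714 to 6563403 per library, where 3 counts correspond to 1.00 and 0.457 CPM. Reads carry no molecular identifiers, so counting intervals cover counting error only.

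Alternatives were 2 other scalings, 2 other filters, DESeq2 1.42.0, limma 3.58.1 (voom, quality weights), a replicate block and leaving out each library. Another gene length was added after seeing the data. The members and the comparison lists were chosen with earlier results of these data known. The naming rule took all members, up to 4 genes of smallest p per comparison list and a fixed set of pathway and marker genes. It also took the 3 genes most like each of *Rtn4*, *Lingo1* and *Ptprs*. Likeness was the Pearson r of log2 CPM with a prior count of 2, among genes with a mean of at least 20 CPM. Not all genes that the rule took from the lists and the fixed set are described here, and some of those left out were lower in double-labelled pools. *Eml6* was added after its overlap with *Rtn4* was seen. A further comparison list is not reported here. The fits were tested on simulated data. Figures were drawn with matplotlib 3.10.9.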

Additional observations from a re-analysis of the deposited data

How the results depend on the processing

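Of 78 recomputed fold changes (6 genes under 13 alternatives), 69 kept their sign, 9 reversed and 0 crossed the threshold. None of the 6 genes was called, or had an unadjusted p under 0.05, under any of the 13. The reversals were *Rtn4* with limma voom (0.10) and without DiO-only pool 2 (0.40), *Lingo1* without double-labelled pool 3 (-0.14), and *Tnfrsf19* with total-count scaling (0.17), with the stricter filter of 10 counts in 5 libraries (0.0085), without DiO-only pools 1 (0.07) and 2 (0.36) and without double-labelled pools 1 (0.56) and 2 (0.03). Over the 6 runs without 1 library the values ranged from -0.83 to 0.40 for *Rtn4*, from -0.14 to 0.72 for *Lingo1*, from -1.26 to 0.56 for *Tnfrsf19*, from 0.19 to 0.59 for *Ptprs*, from 0.41 to 0.91 for *Ptprf* and from 0.02 to 0.35 for *Ptprd*. With the replicate block *Rtn4* was at -0.25, *Lingo1* at 0.18 and *Tnfrsf19* at -0.93, and with limma voom *Tnfrsf19* was at -0.63 and *Ptprd* at 0.40. The cause was not tested. The number of called genes in the whole table, 0 as reported, was 79 without a filter, 75 with DESeq2 and 23 in edgeR with a replicate block, and 0 in all 6 runs that left out a library. The labels speak of 3 batches of libraries without assigning libraries to them, and do not say that equal numbers are pairs, so a batch effect could not be separated here. Deviations of same-numbered pools from their group means correlated at 0.07, 0.23 and 0.20, and each pool correlated best with its own number. *Rtn4r*, *Rtn4rl1* and *Rtn4rl2* had too few counts for the test (37, 2 and 0 over all libraries), and *Tnfrsf19* scattered from 0 to 98 counts among pools. With the longest coding transcript as gene length, the *Ptprf* share was 4.67%.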
